A study of Mus musculus with 4 samples.

Results

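Fibroblast marker genes were followed in flow-sorted airway smooth muscle cells of adult mouse lung. The set comprised 10 genes, Pi16, Dpp4, Cd34, Clec3b, Scara5, Pdgfra, Fap, Dpep1, Gdf10 and Tcf21, chosen by gene symbol. All 10 had 1 probe set each among the 23185 probe sets with a gene symbol, of 25206 on the array. Several had been picked because they differed in BMS or between the control pools, so their levels and differences are given as a description, with no test.

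Every mouse carried Acta2-hrGFP, a green reporter under the smooth muscle actin promoter, and Cspg4-DsRED, a red reporter under the promoter of a pericyte proteoglycan. Green cells without the red reporter were sorted, and the Acta2 promoter is also active in myofibroblasts and vascular smooth muscle. RNA of 3 mice was pooled on 1 array per group, 4 arrays in all. VAD mice received a diet deficient in vitamin A, with less than 0.1 IU per gram, for 3 days by the sample label, although the protocol also states 5 days. VAS mice received the routine sufficient diet of 15 IU per gram, BMS mice 3 days of powdered sufficient diet containing the pan-retinoic acid receptor antagonist BMS at 5 mcg per gram, and CTR mice the same powdered diet with the corn oil vehicle for 3 days. The study asked how retinoic acid, which is made from vitamin A, affects gene expression in airway muscle. With 1 array per group no spread between mice could be measured, and every "higher" or "lower" compares single arrays. Sex and strain were not given in the sources used here.

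Fibroblasts of the lung fall into several populations. Adventitial fibroblasts lie in the cuffs around airways and large vessels, next to the smooth muscle, and in mice are marked by Pi16, Dpp4, Cd34, Clec3b and Scara5. Alveolar fibroblasts lie in the gas-exchange walls and express Tcf21 and Gdf10, while Pdgfra, the receptor for platelet-derived growth factor A, is shared by most lung fibroblasts. Several of these genes are not exclusive to fibroblasts, since Cd34 is also made by endothelial and blood progenitor cells and Dpp4 by T cells and some epithelia.

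The RefSeq table of promoters (GRCm38.p6) held entries for 7 of the 10 genes. The 4 shown are those of genes at least 2-fold higher in BMS than in CTR, each running from 250 bases before the start to 50 bases after it, 5′ to 3′ on the strand of the gene. They lie at chr17:29318632-29318931 on the plus strand for Pi16, chr2:62412182-62412481 on the minus strand for Dpp4, chr1:194938571-194938870 on the plus strand for Cd34 and chr5:75152001-75152300 on the plus strand for Pdgfra. Capitals mark matches, on either strand, to the motifs searched.
Pi16: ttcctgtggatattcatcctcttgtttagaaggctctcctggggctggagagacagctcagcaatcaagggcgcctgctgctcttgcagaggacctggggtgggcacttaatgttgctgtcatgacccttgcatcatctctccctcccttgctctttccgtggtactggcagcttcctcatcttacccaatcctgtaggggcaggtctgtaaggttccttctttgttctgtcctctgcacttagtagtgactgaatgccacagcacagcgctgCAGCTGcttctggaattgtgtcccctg
Dpp4: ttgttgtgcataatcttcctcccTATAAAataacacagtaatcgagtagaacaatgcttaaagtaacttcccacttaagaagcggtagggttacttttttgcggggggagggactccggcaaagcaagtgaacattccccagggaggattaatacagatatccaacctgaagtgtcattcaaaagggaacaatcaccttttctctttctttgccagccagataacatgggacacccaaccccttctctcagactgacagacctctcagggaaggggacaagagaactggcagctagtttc
Cd34: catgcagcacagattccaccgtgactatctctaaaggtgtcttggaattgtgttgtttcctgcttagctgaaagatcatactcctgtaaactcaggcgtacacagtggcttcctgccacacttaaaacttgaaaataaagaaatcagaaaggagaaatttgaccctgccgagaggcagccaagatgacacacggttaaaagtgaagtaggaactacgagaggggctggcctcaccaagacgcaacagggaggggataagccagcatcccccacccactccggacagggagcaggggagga
Pdgfra: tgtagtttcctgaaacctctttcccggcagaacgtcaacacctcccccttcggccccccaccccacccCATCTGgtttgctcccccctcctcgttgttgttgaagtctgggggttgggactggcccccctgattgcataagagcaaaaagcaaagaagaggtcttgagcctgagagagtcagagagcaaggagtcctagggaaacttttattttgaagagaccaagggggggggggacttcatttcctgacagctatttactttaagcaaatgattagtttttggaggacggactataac

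The motifs were AGGTCA and AGTTCA, the half-sites that retinoic acid receptors bind in pairs, CAGCTG and CATCTG, 2 forms of the E-box bound by basic helix-loop-helix factors, the class of Tcf21, and TATAAA, the TATA box. Neither of these half-site forms occurred in any of the 7 promoters, against 16.3% and 14.0% of all 32851 promoters of that length. Other forms of the half-site were not searched, so their absence cannot be read from this. CAGCTG occurred in Pi16 and Dpep1 (16.3% of all promoters), 24 and 21 bases into the gene, counting the start as base 1. CATCTG occurred in Pdgfra (17.2%), at base -182, and TATAAA in Dpp4 (13.6%), at base -227. Cd34, Gdf10 and Tcf21 had no match, and no 2 matches overlapped. These are matches of letters in a short window, not measured binding sites.

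Beside the fibroblast markers, 22 airway smooth muscle markers were measured on every array. Acta2 stood at 12.12, 11.96, 11.95 and 11.98 log2 units on VAD, VAS, BMS and CTR. Cells were sorted by the Acta2 promoter, so a steady Acta2 level is no check of the sort. Cspg4, whose promoter drives the red reporter, had values of 8.22, 7.71, 7.98 and 8.08. Signal over background is unknown for these values, so neither gene shows whether other cells were present. For counts over all genes, genes were kept where the highest of their 4 values was at least 6.05, the median over every probe set with a symbol. This left 12395 genes, with all 10 fibroblast markers among them. Counts within the gene lists are over all measured members, some of them below the filter. Where a gene named from a list lies below the filter, this is stated.

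The clearest common feature was a low CTR array. All 10 genes stood lower in CTR than in VAS and lower in CTR than in BMS, and for 7 of them CTR was the lowest of the 4 arrays. The other 3, Dpp4, Fap and Tcf21, were lowest on VAD. CTR was the highest array for none of the 10. BMS was highest for 5, VAS for 3 and VAD for 2. Several of the genes were picked for differences in BMS or between the controls, so nothing is read from these counts. The shares of all genes with these orders were not counted. BMS minus CTR and CTR minus VAS use the same CTR array with opposite signs, so the 2 differences are given side by side, and BMS minus VAS beside them.

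**Figure D1:**
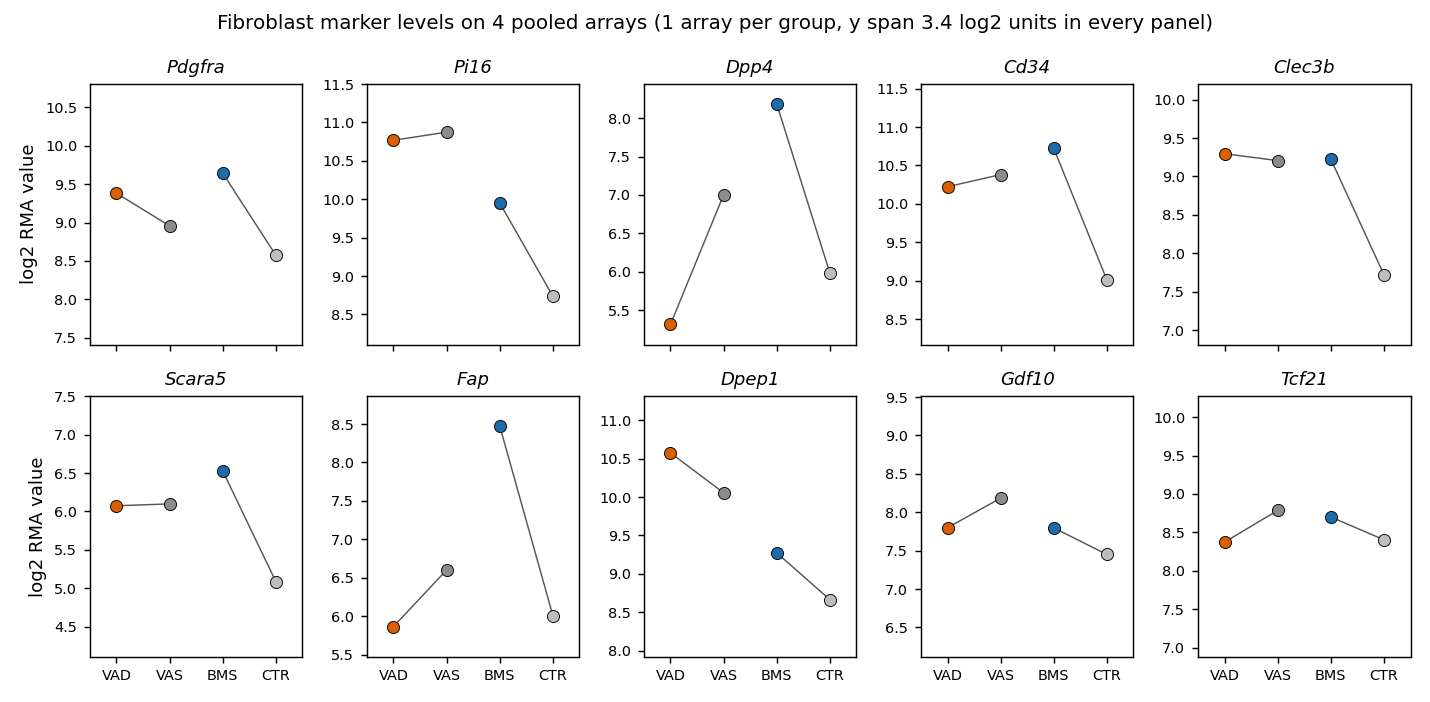
Level of each of the 10 fibroblast markers (log2 RMA value) on the VAD, VAS, BMS and CTR arrays, 1 pooled array per group, with a line joining the 2 arrays of each experiment and the same y span in each panel. CTR is the lowest point in 7 panels, and Dpp4 and Fap are highest on BMS and lowest on VAD.

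Among the adventitial surface markers, Pi16, a peptidase inhibitor that marks the adventitial population across mouse tissues, had the widest gap between controls (Entrez gene 74116). It measured 10.77 in VAD against 10.87 in VAS, and 9.95 in BMS against 8.74 in CTR. Both arrays of the diet experiment were above both arrays of the antagonist experiment. CTR was 4.40-fold below VAS (-2.14 on the log2 scale), BMS was 2.32-fold above CTR (1.21), and BMS stayed below VAS (-0.92).

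Cd34, a cell-surface sialomucin (Entrez gene 12490), measured 10.22 in VAD against 10.38 in VAS, and 10.72 in BMS against 9.01 in CTR. CTR alone stood apart from the other arrays. BMS was 3.28-fold above CTR (1.71 on the log2 scale) and 1.27-fold above VAS (0.34), and CTR minus VAS was -1.37.

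Clec3b encodes tetranectin, a secreted plasminogen-binding lectin (Entrez gene 21922). Its values were 9.30 in VAD against 9.21 in VAS, and 9.23 in BMS against 7.72 in CTR. VAD, VAS and BMS were close together, and CTR was low. BMS was 2.84-fold above CTR (1.51) but differed from VAS by 0.02, and CTR minus VAS was -1.49.

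Scara5 encodes a scavenger receptor that takes up ferritin (Entrez gene 71145). Its values were 6.07 in VAD against 6.10 in VAS, and 6.53 in BMS against 5.09 in CTR. The order was like that of Cd34, with BMS highest and CTR lowest. BMS was 2.72-fold above CTR (1.44) and 0.43 above VAS, while CTR minus VAS was -1.01. All but 1 of its 4 values were under or near the filter value of 6.05.

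Dpp4 encodes dipeptidyl peptidase 4, a membrane protease that trims secreted peptides (Entrez gene 13482), and spanned the widest range of the 10, 2.87 log2 units. It measured 5.31 in VAD against 7.002 in VAS, and 8.18 in BMS against 5.98 in CTR. It was low under the deficient diet and high under the antagonist, each set against its own control. VAD was 3.22-fold below VAS (-1.69), the only difference past 2-fold among the 10 in the diet experiment, and BMS was 4.61-fold above CTR (2.20). BMS was also 2.27-fold above VAS (1.18), and CTR minus VAS was -1.02. The VAD and CTR values of Dpp4, like those of Fap, lay below the filter value of 6.05.

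Fap, fibroblast activation protein, is a surface protease related to Dpp4 and typical of activated fibroblasts (Entrez gene 14089). It measured 5.86 in VAD against 6.60 in VAS, and 8.47 in BMS against 6.01 in CTR. BMS stood apart from the other 3 arrays. Fap had the largest BMS difference of the 10 genes, 5.54-fold above CTR (2.47) and 3.67-fold above VAS (1.87), while VAD minus VAS was -0.74 and CTR minus VAS -0.60.

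Pdgfra, the pan-fibroblast receptor (Entrez gene 18595), measured 9.38 in VAD against 8.96 in VAS, and 9.64 in BMS against 8.57 in CTR. Each treated array stood above its own control. The differences were 0.42 in VAD and 1.07 in BMS, the second only just past 2-fold. BMS minus VAS was 0.69, and CTR minus VAS was -0.38.

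Dpep1 encodes a membrane dipeptidase that cleaves leukotriene D4 (Entrez gene 13479). Its values were 10.58 in VAD against 10.06 in VAS, and 9.27 in BMS against 8.66 in CTR. As for Pi16, both arrays of the diet experiment lay above both of the other experiment. CTR minus VAS was -1.39, BMS minus CTR 0.61, and BMS minus VAS -0.78.

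The alveolar fibroblast genes varied least. Tcf21, a basic helix-loop-helix factor of lung mesenchyme (Entrez gene 21412), measured 8.37 in VAD against 8.79 in VAS, and 8.70 in BMS against 8.40 in CTR. Gdf10, a secreted TGF-beta family protein also called Bmp3b (Entrez gene 14560), measured 7.80 in VAD against 8.18 in VAS, and 7.80 in BMS against 7.45 in CTR. Neither gene spanned 2-fold over the 4 arrays, and for both the VAS array was the highest. For Tcf21, BMS minus CTR was 0.30, BMS minus VAS -0.09, CTR minus VAS -0.38 and VAD minus VAS -0.41. For Gdf10, the same differences were 0.35, -0.39, -0.73 and -0.39. Both genes thus stood above CTR and below VAS in BMS.

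Counted over the set, 7 of 10 genes were at least 2-fold higher in BMS than in CTR (1.07% of all 12395 genes were) and 0 were 2-fold lower (0.282%). The median difference was 1.33, against 0.01 over all genes. Because the contrast helped to choose the genes, nothing is read from this excess. Of the 7, Dpp4 and Fap were also 2-fold higher in BMS than in VAS (0.565% of all genes), and 0 of the 10 were 2-fold lower (1.46%). Of the other 5, Cd34, Clec3b, Scara5 and Pdgfra lay 0.02 to 0.69 above VAS, and Pi16 lay below it, as did Dpep1, Gdf10 and Tcf21. Set against the VAS array in place of CTR, the median over the 10 genes was 0.18.

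Between the controls, 6 of 10 genes were at least 2-fold lower in CTR than in VAS (1.71% of all genes) and none was higher by that much (0.323%). They were Pi16, Clec3b, Dpep1, Cd34, Dpp4 and Scara5, the last 2 only just past 2-fold. With repeated quantile normalization Scara5 fell short, at -0.99, leaving 5 of 10. The median was -1.02, against 0.00 over all genes. This contrast also helped to choose the genes. The CTR and VAS mice came from different experiments, with powdered or routine chow, with or without corn oil, and in separate pools, and these cannot be told apart here.

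In the diet experiment fewer of the genes passed 2-fold. Dpp4 was the 1 gene of 10 at least 2-fold lower in VAD than in VAS (0.42% of all genes), 0 were 2-fold higher (0.234%), and the median was -0.13, against 0.01 over all genes. Pdgfra, Dpep1 and Clec3b were above VAS and the other 7 below. Clec3b and Scara5 lay within 0.10 of 0, and their signs turned under another scaling (Clec3b to -0.03 with arrays shifted to equal smooth muscle medians, Scara5 to 0.0047 with repeated quantile normalization). Set against CTR in place of VAS, 4 genes, Pi16, Dpep1, Clec3b and Cd34, were at least 2-fold higher in VAD (1.4% of all genes) and 0 were 2-fold lower (0.363%). Dpp4 stayed below CTR in VAD, by -0.67, and Fap by -0.14. Some markers of cells that can make Dpp4 were lower in VAD too, and others were not. Of 15 epithelial markers, 5 of them past the filter, 2 were at least 2-fold lower (0.42% of all genes). These were Sftpc with -1.58 and the surfactant protein gene Sftpa1 with -1.08. Of the 15, 11 were below 0 and 4 above it, among them Scgb1a1, past the filter, with 0.25. Of 16 measured leukocyte markers, 1 was 2-fold lower, the T cell gene Cd3g with -1.43, which lay below the filter on all arrays. Cd3e, a T cell gene past the filter, went the other way, with 0.71. The medians of the epithelial and leukocyte lists were -0.14 and -0.10, and the part of these cells in the Dpp4 difference was not tested.

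**Figure D2:**
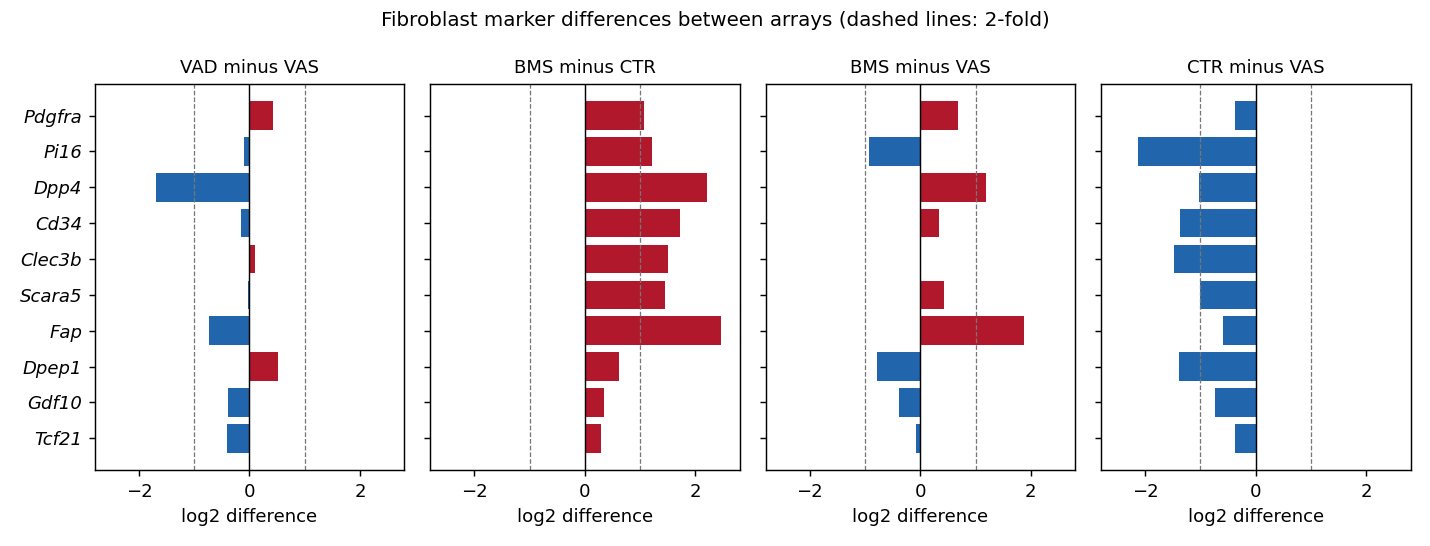
Difference in log2 units for each of the 10 fibroblast markers in VAD minus VAS, BMS minus CTR, BMS minus VAS and CTR minus VAS, as bars from 0 with dashed lines at 2-fold. All bars point up in BMS minus CTR and down in CTR minus VAS, and only Dpp4 and Fap pass 2-fold in BMS minus VAS.

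By the shape of their 4 values, the genes were put into 4 patterns, chosen after the values were seen. Likeness was taken as the distance over the 4 arrays between profiles centred on their own mean, where 0 means the same shape. Cd34 and Scara5 were the closest pair, at 0.27, and Clec3b lay 0.41 from Cd34, all low on CTR alone. Pi16 and Dpep1, high in both arrays of the diet experiment, were 0.63 apart. Dpp4 and Fap, high on BMS and low on VAD, were 0.70 apart. Gdf10 and Tcf21, with small ranges, were 0.34 apart, and Pdgfra lay nearest to Scara5, at 0.47. Some distances across patterns were little larger than that of Dpp4 and Fap, such as 0.74 for Pi16 and Clec3b and 0.82 for Scara5 and Gdf10. The patterns are therefore not separate groups, and with 4 points per gene all these distances are descriptions only.

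Among 531 genes that passed the filter and varied at least 2-fold, the most similar profiles were found for the 8 markers that also varied 2-fold. Nearest to Cd34 were Ctsh, a cathepsin, and Serpinf1, a secreted serpin, at 0.22 and 0.23. Nearest to Scara5 were Mme, the peptidase neprilysin, and Col15a1, a collagen, both at 0.16. Pdgfra was closest to Ctsk and Ackr2 (0.16 and 0.19), and Clec3b to Dclk1 and Apbb1ip (0.24 and 0.25).

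For Pi16 the nearest were Il33, an alarmin cytokine, and Apod, a lipid carrier, at 0.26 and 0.27. Dpep1 was nearest to Tspan11 and Alox5ap (0.18 and 0.19). Fap was nearest to Meox1, a homeobox gene, and Dkk2, a secreted Wnt antagonist (0.32 and 0.33), and Dpp4 to Fap and Dkk2 (0.70 and 0.76). Dkk2 measured 6.06 in VAD against 6.86 in VAS, and 8.98 in BMS against 6.61 in CTR.

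Dpp4 and Fap are near neighbours on mouse chromosome 2, with Gcg, the glucagon gene, as the one measured protein-coding gene between them in the RefSeq gene order. Gcg did not move with them. It measured 5.32 in VAD against 5.25 in VAS, and 5.33 in BMS against 5.27 in CTR, and it lay below the filter on all arrays. Ifih1, on the far side of Fap, differed by 0.11 in BMS minus CTR, and Slc4a10, on the far side of Dpp4, by -0.13, with Slc4a10 below the filter on all arrays as well. The neighbours were looked at after the markers' values were seen. Over all 10 markers, the 2 nearest measured protein-coding genes on each side gave 37 neighbours outside the set, 21 of them past the filter. Of these 37, 0 were 2-fold higher in BMS than in CTR (1.07% of all genes) and 0 were 2-fold lower in CTR than in VAS (1.71%). With 16 of the 37 below the filter and such low shares, these counts say nothing particular about the neighbours. Kit and Kdr, receptor genes beside Pdgfra, differed by -0.25 and 0.20 in BMS minus CTR, and Plxna2, beside Cd34, by 0.55.

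**Figure D3:**
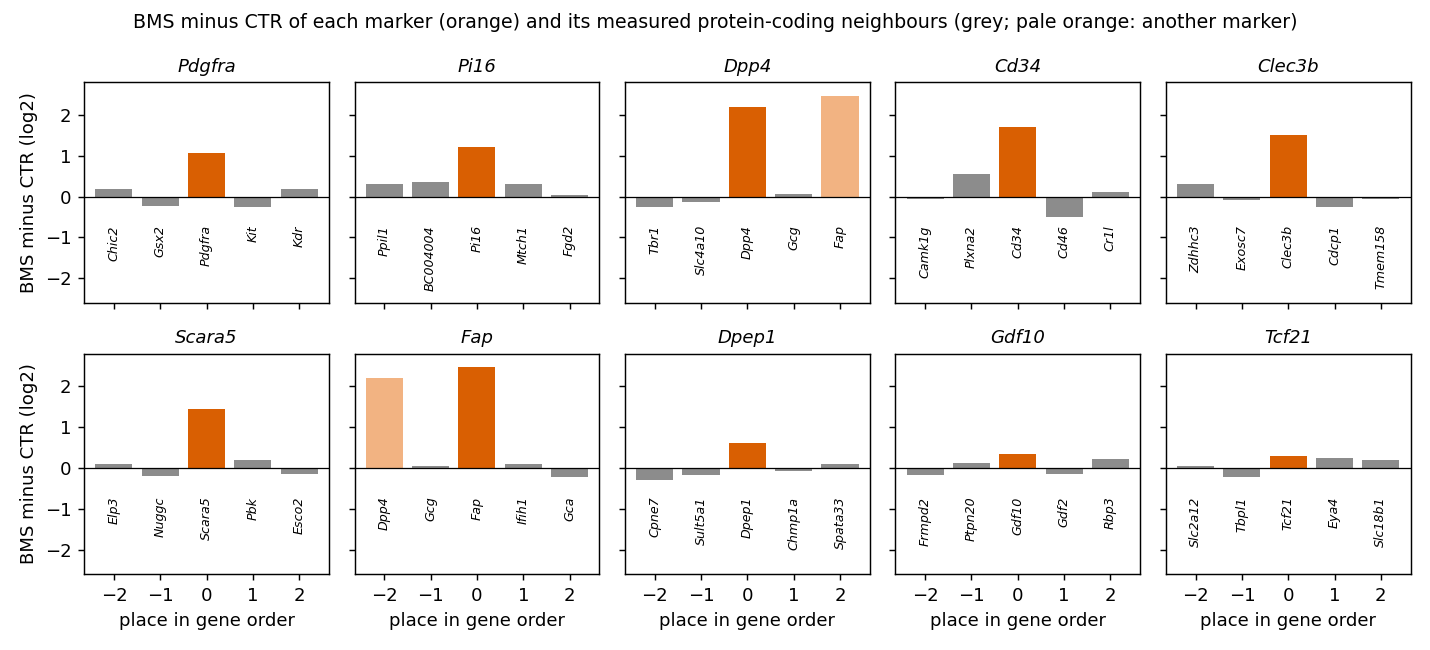
BMS minus CTR (log2 units) for each fibroblast marker, in orange at place 0, and for the 2 nearest measured protein-coding genes on each side in gene order, in grey, or pale orange where the neighbour is another of the 10. No grey bar reaches 2-fold, while Dpp4 and Fap stand high on either side of Gcg.

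A separate list of 26 adventitial fibroblast genes outside the set, 24 of them measured and 22 past the filter, had a mean level of 9.27 in VAD, 9.38 in VAS, 9.49 in BMS and 8.78 in CTR. CTR was the lowest array for 16 of the 24. The list was written with earlier results of these arrays known. Shares of all genes lowest on CTR, or above 0 in BMS minus CTR, were not counted, so nothing is read from such counts. In BMS minus CTR, 6 of 24 were at least 2-fold higher (1.07% of all genes) and 0 lower (0.282%). Of the 24, 21 were above 0, with a median of 0.59, against 0.01 over all genes. Of the 6, Ly6c1, with 1.48, lay below the filter, which leaves 5 of 22 past it. The largest were Serpinf1 with 1.99, Efemp1, an elastic fibre protein, with 1.60, Cd248, the surface protein endosialin, with 1.57, and Entpd2, an ATP-hydrolysing enzyme, with 1.54. In CTR minus VAS, 7 of 24 were at least 2-fold lower (1.71% of all genes), led by Il33 with -1.96 and Serpinf1 with -1.62. The median was -0.57, against 0.00 over all genes. In BMS minus VAS, 0 of 24 were 2-fold higher (0.565% of all genes). The 2 that were 2-fold lower (1.46%) were Adh7 with -1.48 and Il33 with -1.01. Adh7 was also lower in BMS than in CTR, with -0.23. In VAD minus VAS, 0 of 24 were 2-fold higher (0.234% of all genes) or lower (0.42%), and the median was -0.07. Ackr3, a chemokine scavenging receptor, had the largest diet difference of the list, -0.57.

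Of 26 alveolar fibroblast genes, all were measured and 25 passed the filter. In BMS minus CTR, 0 of 26 were 2-fold higher (1.07% of all genes) and 0 lower (0.282%). With such low shares, these counts say nothing particular about the list. The median was 0.21, against 0.01 over all genes. Meox2, a homeobox gene, differed by 0.99 and Vegfd, a lymphatic growth factor, by 0.89. Between the controls 2 of 26 were at least 2-fold lower in CTR (1.71% of all genes), Gpc3, a heparan sulfate proteoglycan, with -1.27 and Vegfd with -1.16. The median was -0.12. In VAD minus VAS the median was 0.14, with Ces1d, a lipid-cleaving carboxylesterase, at -0.66 and Plin2, a lipid droplet protein, at 0.53. Some genes of this list, such as Dpt and Ogn, are also expressed by other fibroblasts.

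Of 18 pan-fibroblast genes, 17 of them past the filter, 1 was 2-fold higher in BMS than in CTR (1.07% of all genes). This was Thy1, a surface glycoprotein, with 1.55. Of the 18, 17 were above 0, a count with no share over all genes beside it. The median was 0.31, against 0.01 over all genes. Fibronectin, Fn1, differed by 0.63, the gelatinase gene Mmp2 by 0.67 and the collagen gene Col6a2 by 0.62. Between the controls the median was 0.05. Thy1 and Vcam1, an adhesion molecule, were the 2 genes at least 2-fold lower in CTR (1.71% of all genes), with -1.11 and -1.02. Whether these lists differ from each other was not tested, and all were written with earlier results of these arrays known.

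**Figure D4:**
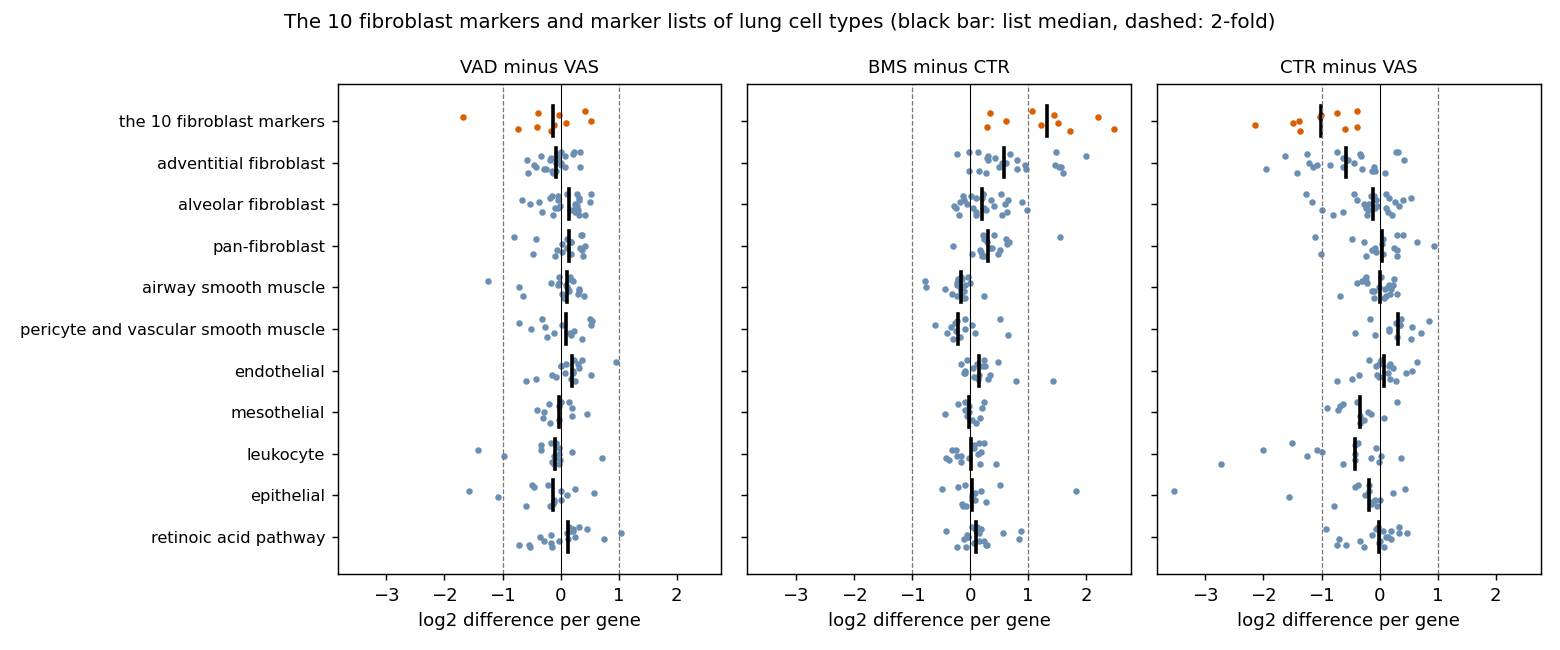
Log2 differences per gene in VAD minus VAS, BMS minus CTR and CTR minus VAS for the 10 fibroblast markers (orange) and 10 other gene lists (blue), with the list median as a black bar and dashed lines at 2-fold. In BMS minus CTR the median is 1.33 for the 10 markers, 0.59 for adventitial fibroblast genes, 0.21 for alveolar fibroblast genes and -0.16 for airway smooth muscle genes.

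Airway smooth muscle genes lay mostly below 0 in BMS minus CTR. Of 22 measured, 21 of them past the filter, 0 were 2-fold higher (1.07% of all genes) or lower (0.282%). With such low shares, 0 of 22 says nothing particular. Of the 22, 21 lay below 0, with a median of -0.16, against 0.01 over all genes. The share of all genes below 0 was not counted. Chrm2, the M2 muscarinic receptor, differed by -0.78 and Tacr2, a neurokinin receptor, by -0.75. The mean level of the 22 genes was 10.42 in VAD, 10.44 in VAS, 10.19 in BMS and 10.39 in CTR. The 10 fibroblast markers had mean levels of 8.37, 8.61, 8.85 and 7.56 on the same arrays. In pooled RNA, fewer fibroblasts in a sort and less of these transcripts per cell cannot be told apart.

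Markers of other cells were set beside these values. Endothelial markers were of interest because Cd34 is also endothelial. The 18 markers, 17 of them past the filter, had mean levels of 7.13 in VAD, 6.99 in VAS, 7.27 in BMS and 7.04 in CTR. Of the 18, 1 was at least 2-fold higher in BMS than in CTR (1.07% of all genes), the receptor gene Tek with 1.42. Cdh5, the endothelial cadherin, differed by 0.35. Between the controls 0 of 18 were 2-fold lower in CTR (1.71% of all genes) or higher (0.323%). The 14 pericyte and vascular smooth muscle markers, 13 of them past the filter, had means of 8.66, 8.64, 8.82 and 8.92 in the same order. Their medians were -0.20 in BMS minus CTR and 0.32 in CTR minus VAS. The 12 mesothelial markers had means of 5.26, 5.29, 4.93 and 4.94, and 5 of them passed the filter. None of the 14 or the 12 passed 2-fold in BMS minus CTR or CTR minus VAS. With the low shares of all genes that did, this says nothing particular about these lists.

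The 16 measured leukocyte markers, 8 of them past the filter, had mean levels of 6.45 in VAD, 6.64 in VAS, 5.88 in BMS and 5.91 in CTR. These means were higher in both arrays of the diet experiment, as Pi16 and Dpep1 were. Between the controls 5 of 16 were at least 2-fold lower in CTR (1.71% of all genes), and 4 of the 5 were past the filter, all but Cd3g. Among them were the neutrophil genes S100a9 with -2.74 and S100a8 with -1.999. Cd3e, a T cell gene past the filter, went the other way, with 0.36. In BMS minus CTR 0 of 16 were 2-fold higher (1.07% of all genes) or lower (0.282%), and the median was 0.02. The 15 epithelial markers had means of 5.78, 6.05, 5.71 and 5.58. Of the 15, 1 was at least 2-fold higher in BMS than in CTR (1.07% of all genes), Sftpc, surfactant protein C, with 1.82. CTR minus VAS for Sftpc was -3.54. RMA values have no true 0, so absence of a cell type cannot be read from them, and the part of these cells in the fibroblast marker differences was not tested.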

How the data were processed

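RNA of sorted airway smooth muscle cells, pooled from 3 mice per group, was measured on 4 arrays. The authors deposited log2 values from RMA (background correction, normalization between arrays, summary per probe set). The submitters' processing notes name affy 1.36.1 and R 2.15.1. Whether other arrays were normalized with them, and the genome build, are not given in the sources used here. RMA gives arrays nearly equal distributions, so a shift of most genes would not be seen, and detection per probe set is unknown. The number of arrays limits the precision.

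Groups came from the sample titles. Symbols came from GEO's platform annotation (1 symbol for 23185 probe sets, none for 2021). Comparisons are differences between the log2 values of single arrays, with 2-fold as the call and no p-value. The marker genes and all lists were chosen with earlier results of these data known. Named genes are the 10 markers, up to 4 genes of each other list by BMS minus CTR, up to 2 by VAD minus VAS and up to 2 by CTR minus VAS, Acta2 and Cspg4, and the 2 nearest profiles. Neighbouring genes and the examples Dpt, Ogn, Ly6c1 and Adh7 fall outside this rule. Neighbours came from the RefSeq gene table (GRCm38.p6), which held all 10 markers. Counting was tested on simulated data. Alternatives were thresholds of 1.5-fold and 3-fold, other filters, repeated quantile normalization, cyclic loess, shifting arrays to equal airway smooth muscle medians, and other controls. Software was limma 3.58.1 (cyclic loess) in R 4.3.3, and numpy 2.4.6, pandas 2.3.3 and matplotlib 3.10.9 in Python 3.11.15.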

Additional observations from a re-analysis of the deposited data

Results flagged for a closer look

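Dpp4 and Fap stood out because their differences ran opposite ways in the 2 experiments, each by at least 1.5-fold. For Dpp4 the BMS minus CTR difference (2.20) exceeded the VAD minus VAS difference (-1.69) by 3.89 log2 units. For Fap the 2 differences (2.47 and -0.74) lay 3.21 apart. Each rests on 1 array per group, and the difference between experiments was not tested.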

How the results depend on the processing

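The choice of control changed most. With the other experiment's control, 2 markers in place of 7 were 2-fold higher in BMS with a median of 0.18, and Pi16, Dpep1, Gdf10 and Tcf21 turned to -0.92, -0.78, -0.39 and -0.09. In VAD, 4 in place of 0 were then 2-fold higher, 0 in place of 1 lower, and the median turned to 0.90. With the mean of both controls, 3 were higher in BMS, 1 was higher in VAD, and the VAD median turned to 0.50. At 3-fold, 3 markers were higher in BMS than in CTR and 1 was lower in CTR than in VAS, and at 1.5-fold 2 were lower in VAD than in VAS. Repeated quantile normalization, cyclic loess and the smooth muscle shift moved the differences of the markers by at most 0.04, 0.02 and 0.30, and the first left 5 in place of 6 markers 2-fold lower in CTR than in VAS. Over all genes, no filter gave 51 higher and 92 lower in VAD in place of 29 and 52, 67 lower in BMS in place of 35, and 72 higher in CTR than in VAS in place of 40. A filter at the 75th percentile gave 17 and 34 in VAD, 80 and 14 in BMS in place of 133 and 35, and 23 and 114 in CTR in place of 40 and 212. The causes were not tested. No paired analysis was possible because each group is 1 array with no replicate number. No array could be left out of a group for the same reason.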

Other observations

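Retinoic acid pathway genes were measured beside the fibroblast markers, 20 of 21 on the list, with 15 of the 20 past the filter. The median of the 20 was 0.10 in BMS minus CTR and 0.12 in VAD minus VAS. In these differences 0 and 1 genes were at least 2-fold higher (1.07% and 0.234% of all genes). The 1 gene was Dhrs3, which reduces retinaldehyde to retinol, with 10.34 in VAD against 9.30 in VAS, and 10.20 in BMS against 9.63 in CTR. Aldh1a1, a retinoic acid synthesis enzyme, measured 9.52 in VAD against 8.78 in VAS, and 8.91 in BMS against 8.08 in CTR, so it shared the low CTR array of the fibroblast markers. Aldh1a2, another such enzyme, measured 5.68 in VAD against 5.47 in VAS, and 6.41 in BMS against 5.53 in CTR, and like Fap it was highest on BMS. Rbp4, the plasma retinol carrier, measured 8.83 in VAD against 8.61 in VAS, and 7.88 in BMS against 7.70 in CTR, high in both arrays of the diet experiment as Pi16 was.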
